A study of Mus musculus with 22 samples.

Results

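Caerulein, a peptide that acts on the cholecystokinin receptor and overstimulates acinar cells, was given to mice with floxed Ehmt2 alleles and a Cre of the pancreatic epithelium, and the messenger RNA of their whole pancreas was set against that of untreated mice of the same genotype. The comparison holds 5 of the 22 libraries of the series, chosen by the group that the labels give them. These were 2 Ehmt2fl/fl mice with acute pancreatitis (AP) and 3 untreated Ehmt2fl/fl young adults (YA), all C57Bl/6 and all carrying Pdx1-Cre. The AP mice were fasted for 12 h, were injected 8 times at hourly spacing with 50 µg/kg caerulein, and gave tissue 18 h after the first dose. The labels attach 1 protocol to all samples, which mentions a saline control, but do not say whether the YA mice, called untreated here, had saline or a fast, so caerulein cannot be told apart from the fast, the injections or the cohort. Pdx1-Cre acts in the progenitors of acinar, duct and islet cells, so leukocytes, fibroblasts and vessels keep Ehmt2 in these mice. Pdx1-Cre mice with intact Ehmt2 (Ehmt2+/+, 4 AP and 2 YA) and 3 caerulein-treated Ehmt2fl/fl mice with P48-Cre, which is driven from the Ptf1a locus, are used only where they are named.

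Acinar cells make up most of the pancreas and devote most of their messenger RNA to digestive enzymes, under the control of the PTF1 complex and a few partner transcription factors. In caerulein pancreatitis these cells release and activate their enzymes, lose much of the acinar programme for a time and take on duct-like features (acinar-to-ductal metaplasia), while neutrophils and monocytes enter the tissue. Ehmt2, also called G9a, encodes a histone methyltransferase that works with its partner Ehmt1 to place the mono- and dimethyl marks of histone H3 lysine 9, which are found at silenced genes.

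Ehmt2 itself stood at 40.7, 38.3 and 37.3 CPM (counts per 1000000 of a library size scaled by TMM factors) in the untreated mice and at 31.4 and 31.2 CPM in the treated mice. The groups did not overlap, but the difference (log2 -0.31 ± 0.13 SE, adjusted p = 0.0751 by edgeR's quasi-likelihood test) did not reach the size required of a call, and it turned to 2.02 when scaled by library totals. The deposited counts are per gene and include exons outside the floxed part, so this level is no check of the knockout. Its partner Ehmt1, which was chosen after its values were seen, stood at 7.78, 8.67 and 7.56 CPM without and at 8.42 and 8.37 CPM with caerulein. Throughout, values are given for untreated mice 1, 2 and 3 and then for treated mice 1 and 2, and a gene passed at an adjusted p (FDR) under 0.1 if the groups also differed by 1 or more on the log2 scale.

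The libraries held 23698073 to 25992520 counts in the untreated mice and 31146812 and 34492673 counts in the treated mice. The 34 digestive enzyme genes took 61.6%, 63.0% and 60.8% of all counts without caerulein and 30.4% and 27.1% with it. Ribosomal RNA gene models with Lars2 took 17.6% to 21.3% of counts in untreated and 20.4% and 26.1% in treated mice, and the share of all other genes was 16.6% to 19.9% against 48.3% and 45.8%. The scaling decided the direction of many moderate falls, since with TMM the median log2 difference of all genes was 0.057, and by library totals it was 2.37. The balance of long against short genes was -0.30, -0.08 and 0.05 (log2) in the untreated and 0.13 and 0.14 in the treated mice, so it moved with the groups. By Y-linked genes, both treated mice and untreated mice 1 and 2 were male and untreated mouse 3 was female. Treated mouse 2 had far higher levels of some lymphoid genes than treated mouse 1, and those genes are given without it. In whole pancreas, fewer cells of a type and less RNA per cell cannot be told apart.

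**Figure D1:**
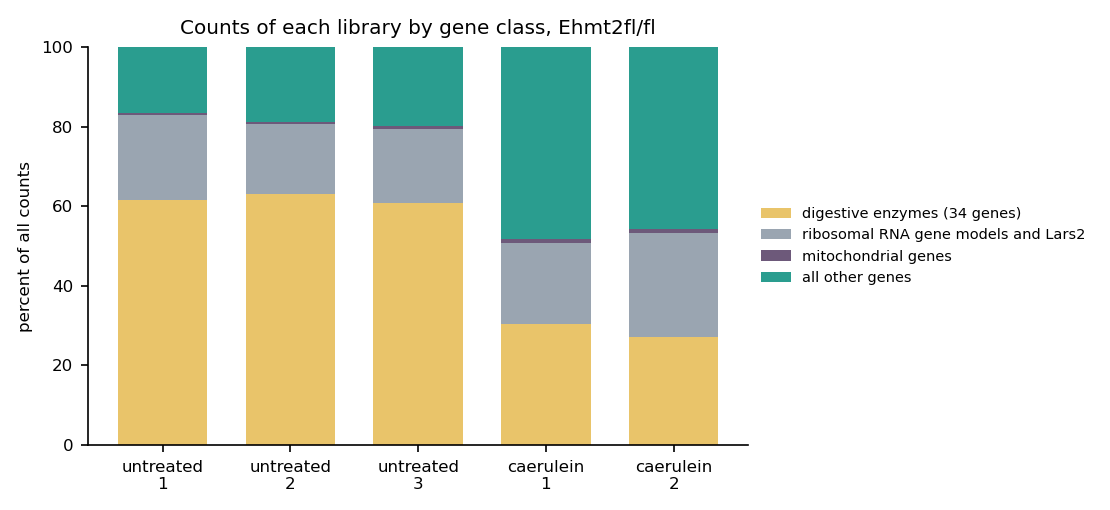
Share of all counts (percent, y axis) taken by digestive enzymes, ribosomal RNA gene models with Lars2, mitochondrial genes and all other genes in each of the 5 Ehmt2fl/fl libraries (bars). Enzymes fill 60.8% to 63.0% of the untreated and 30.4% and 27.1% of the treated bars.

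Caerulein was followed by a broad change of the Ehmt2fl/fl pancreas: inflammatory, leukocyte, keratin and cytoskeletal genes rose, and genes of the acinar secretory programme fell. Of 14586 genes tested, 2628 rose (18.0%) and 2326 fell (15.9%), and 195 of the rises and 44 of the falls were of at least 5 on the log2 scale. The groups did not overlap in 4915 of the 4954 genes that passed. This adds no support, since the share over all genes was not counted and genes that did not pass, such as Ehmt2, could be apart too. The call was kept whichever library was left out for 2082 of the rises and 1820 of the falls. By library totals, all 2628 rises still passed, 183 of the falls still passed, and 777 genes that fell with TMM passed as higher.

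The largest rises, among genes with a mean of at least 5 CPM, were led by monocyte, macrophage and injury genes. Ms4a4c, a membrane protein gene of monocytes, had 1 count in the 3 untreated libraries together and stood at 22.2 and 9.90 CPM after caerulein, a ratio of counts of 624 (95% exact interval 112 to 24661). Chil3, a secreted chitinase-like protein of alternatively activated macrophages, stood at 0.0997, 1.27 and 0.0620 CPM and then at 186 and 134 CPM (log2 8.36 ± 0.69, adjusted p = 1.6e-04, and log2 7.71 to 10.98 with 1 library left out, the highest without untreated mouse 2). Both treated mice lay far above every untreated mouse for these genes, with mouse 1 the higher. Arg1, an arginine-degrading enzyme of the same macrophage state, went from 0 to 0.399 CPM up to 39.3 and 29.4 CPM (log2 7.79 ± 0.41, but 8.91 without untreated mouse 1 and 7.20 without untreated mouse 2). Ccl2 (0.0620 to 0.299 CPM, then 37.8 and 15.7 CPM) and Ccl7 (0.0748 to 0.199 CPM, then 34.7 and 13.1 CPM) encode chemokines that draw monocytes through Ccr2, and their log2 differences of 7.43 and 7.27 came to 6.65 and 6.40 without treated mouse 1. The scavenger receptor gene Msr1 rose 113-fold, the acute phase gene Saa3 222-fold and Anxa10, an annexin gene of gastric epithelium, 137-fold. Sprr1a, a cornified envelope precursor of squamous epithelium, stood at 0.199, 0.0748 and 0.124 CPM without and at 36.3 and 32.9 CPM with caerulein (log2 8.06 ± 0.24, adjusted p = 1.4e-06). Marco, a macrophage scavenger receptor, had 3 counts in the untreated libraries and stood at 1.94 and 34.5 CPM after caerulein, a ratio of counts of 250 (85.3 to 1211). Its fitted log2 difference was 7.85 with both treated mice and 4.60 without treated mouse 2, and it missed the threshold when untreated mouse 1 (adjusted p = 0.181) or 3 (adjusted p = 0.215) was left out or sex was a covariate (adjusted p = 0.219). With the long-short balance as a covariate, Ms4a4c, Ccl7 and Marco missed the threshold (adjusted p = 0.140, 0.117 and 0.848).

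The largest falls included genes that acinar cells express highly. Rnase1, the pancreatic ribonuclease, stood at 31532, 21297 and 17939 CPM and then at 407 and 316 CPM (log2 -6.03 ± 0.48, adjusted p = 2.0e-05). Serpini2, a pancreatic serine protease inhibitor, went from 915 to 1099 CPM down to 12.0 and 12.1 CPM (log2 -6.36 ± 0.33). The groups were far apart for these genes, and both falls also passed by library totals. Agr2, a disulfide isomerase of the endoplasmic reticulum (ER) in secretory cells, varied among untreated mice, at 8.48, 21.9 and 34.8 CPM, against 0.168 and 0.0659 CPM after caerulein (log2 -7.55 ± 0.89, and -8.30 without treated mouse 1). Sostdc1, whose secreted product blocks BMP ligands, fell 122-fold, Hamp2, a gene of the hepcidin family, 89.5-fold, and Egf, the founding ligand of the EGF receptor, 57.7-fold. Derl3, a component of ER-associated degradation, fell 52.0-fold, Obp2b, a lipocalin gene, 50.6-fold, and the acinar transcription factor gene Bhlha15 44.7-fold. Bc1, a short noncoding RNA gene, stood at 111, 7.62 and 2.67 CPM before and at 0.491 and 0.747 CPM after caerulein. Its log2 difference was -6.00 ± 2.27 with untreated mouse 1 and -3.06 without it, and it missed the threshold without untreated mouse 3 (adjusted p = 0.103) or treated mouse 1 or 2 (adjusted p = 0.387 and 0.361), by library totals (0.186), with sex as a covariate (0.107) or with the long-short balance (0.386).

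**Figure D2:**
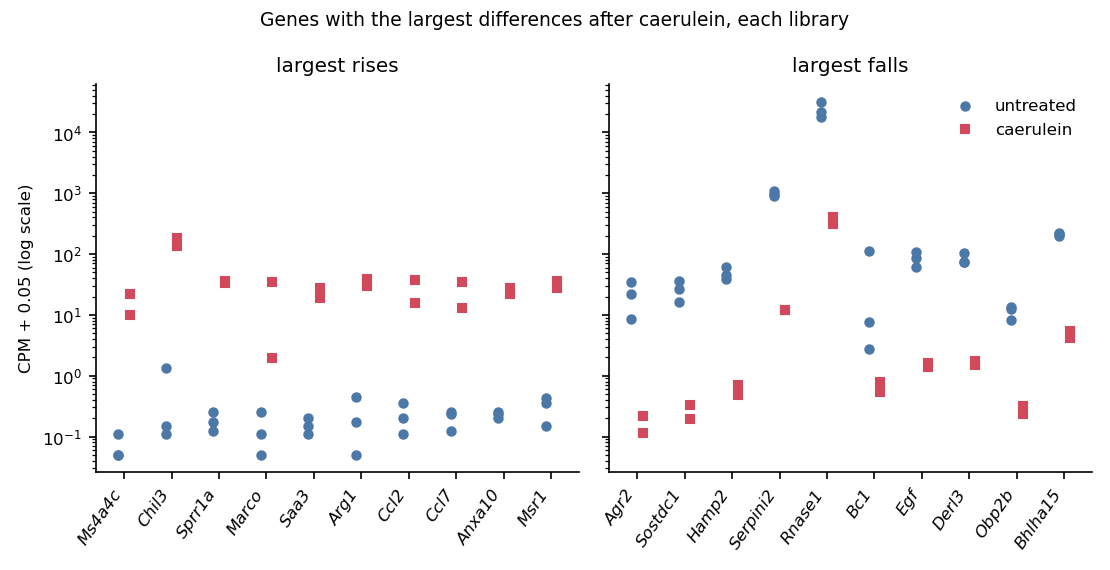
CPM plus 0.05 (log scale, y axis) of the 10 genes with the largest rises and the 10 with the largest falls, 1 point per library, with circles for the 3 untreated and squares for the 2 caerulein-treated mice. The groups are apart for each gene because the genes were selected so. The direction of each is the same by library totals, and the treated squares of Marco (1.94 and 34.5 CPM) and the untreated circles of Bc1 (2.67 to 111 CPM) spread the most.

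The acinar enzyme programme fell as a whole and unevenly. Of 34 digestive enzyme genes, 32 fell, with a median log2 difference of -3.52 against 0.057 over all genes, and 29 of them kept the call whichever library was left out. By library totals 18 fell and 1 rose. Amy2a2, an amylase gene, stood at 11036, 9849 and 11812 CPM and then at 284 and 337 CPM (log2 -5.13 ± 0.38, adjusted p = 1.3e-05), and the near-identical copy Amy2a5, with which it may share reads, went from 9570 to 11920 CPM down to 284 and 325 CPM. Clps, which encodes the colipase that anchors pancreatic lipase, fell 42.2-fold, from 24603, 17032 and 16231 CPM to 462 and 451 CPM. A pair of protease genes, chosen after their values were seen, held more of their share of the library. Ctrb1, a chymotrypsinogen gene, took 9.78%, 10.6% and 10.4% of all counts in untreated and 9.61% and 8.44% in treated mice, and its log2 difference was -2.57 ± 0.42 with TMM and -0.19 by library totals. Prss3, a trypsinogen gene that may share reads with its close copies, went from 0.560%, 1.08% and 1.29% of counts to 1.46% and 1.68%, so that its direction depended on the scaling (log2 -1.60 with TMM and 0.68 by library totals). Pnlip, the pancreatic triglyceride lipase gene, went from 6.09%, 5.44% and 3.48% of counts to 1.01% and 0.715%.

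Regulators of acinar identity fell with the enzymes. Of 11 such genes, 9 fell (median log2 -1.87), while by library totals 2 fell and 2 rose. Bhlha15, also known as Mist1, which scales up the secretory apparatus of acinar cells, stood at 195, 213 and 223 CPM and then at 4.08 and 5.32 CPM (log2 -5.48 ± 0.26, adjusted p = 3.0e-06). Rbpjl, the acinar subunit of the PTF1 complex, went from 108, 101 and 118 CPM to 5.61 and 4.27 CPM (log2 -4.46 ± 0.22, adjusted p = 3.2e-06). The groups were far apart for both genes, and both falls also passed by library totals. Nr5a2, a nuclear receptor that works with PTF1 at acinar genes, stood at 38.6, 39.5 and 35.3 CPM and then at 9.20 and 8.34 CPM (log2 -2.11 ± 0.14), and its direction turned by library totals (0.22). Gata4, a transcription factor gene of early pancreas and acinar cells, fell 5.66-fold with TMM and differed by -0.15 on the log2 scale by library totals. Ptf1a, the founding subunit of the complex, which was chosen after its values were seen, fell from 23.5, 30.0 and 34.3 CPM to 12.1 and 11 CPM (log2 -1.35 ± 0.18, but 0.93 by library totals).

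The promoters of Rbpjl, Nr5a2 and Bhlha15 are shown because these regulators fell and, as given further on, fell more than in Ehmt2+/+ mice. Only windows that held the letters marked below were kept for display. That of Nr5a2 lies inside the gene, whose annotated 5′ end is at 136960448. Each sequence runs from 250 bases before to 50 bases after the start site (counted as 0) in RefSeq (GRCm38.p6), 5′ to 3′ on the strand of the gene, and capitals mark CACCTG and TGGGA on either strand, the core letters of the E-box and the TC-box that PTF1 is known to read.
Rbpjl: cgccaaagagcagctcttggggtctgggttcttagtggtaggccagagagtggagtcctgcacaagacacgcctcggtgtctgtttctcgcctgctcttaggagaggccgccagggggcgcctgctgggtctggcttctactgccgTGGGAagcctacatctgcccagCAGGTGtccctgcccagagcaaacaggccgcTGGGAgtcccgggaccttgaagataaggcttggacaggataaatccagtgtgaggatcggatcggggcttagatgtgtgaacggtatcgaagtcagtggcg
Nr5a2: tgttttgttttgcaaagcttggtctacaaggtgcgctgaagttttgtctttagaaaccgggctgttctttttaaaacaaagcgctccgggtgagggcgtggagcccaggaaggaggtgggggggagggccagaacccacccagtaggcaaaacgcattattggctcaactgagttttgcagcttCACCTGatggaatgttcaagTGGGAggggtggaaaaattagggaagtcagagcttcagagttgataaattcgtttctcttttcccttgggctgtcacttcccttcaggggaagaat
Bhlha15: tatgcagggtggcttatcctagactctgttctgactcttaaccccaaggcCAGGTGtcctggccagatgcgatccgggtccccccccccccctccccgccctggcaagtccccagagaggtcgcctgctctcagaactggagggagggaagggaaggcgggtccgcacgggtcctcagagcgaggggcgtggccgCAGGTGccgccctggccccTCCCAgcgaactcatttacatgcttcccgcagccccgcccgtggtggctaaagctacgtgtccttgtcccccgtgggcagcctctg
In Rbpjl (chr2:164402944-164403243, plus strand) CACCTG began at -82 and TGGGA at -104 and -51 from the start site. Nr5a2 (chr1:136953581-136953880, minus strand) held CACCTG at -66 and TGGGA at -46, and Bhlha15 (chr5:144190036-144190335, plus strand) held CACCTG at -200 and -55 and TGGGA at -36. Both motifs stood in 13 of 31 promoters of the digestive enzyme genes (41.9%) and in 5 of 10 of the acinar regulators, against 13.1% of all 32851 promoters in the table, 15% of those of genes that fell and 11.8% of those that rose. A match of letters is a description of these windows and not a bound site.

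The machinery that serves secretion fell beside its cargo. Of 26 genes of secretagogue receptors and zymogen granules, 16 fell and none rose (median log2 -1.62), although by library totals 6 fell and 12 rose. Cckar, the receptor that caerulein acts on, stood at 510, 498 and 445 CPM and then at 19.8 and 21.1 CPM (log2 -4.57 ± 0.27, adjusted p = 5.9e-06). The treated mice lay far below every untreated mouse. Aqp12, an aquaporin gene of acinar cells, fell 21.4-fold, and Rab3d, a GTPase of the granule membrane, 5.08-fold with TMM, with a difference of -0.01 on the log2 scale by library totals. Of 34 genes of ER folding, translocation and the unfolded protein response, 26 fell (median log2 -1.65), and by library totals 3 fell and 12 rose. Ero1lb, an oxidase that forms disulfide bonds, went from 400, 300 and 285 CPM to 14.2 and 15.3 CPM (log2 -4.47 ± 0.29). Herpud1, a component of ER-associated degradation, fell 7.73-fold and Sec11c, a signal peptidase subunit, 9.58-fold, and neither passed by library totals (log2 -0.64 and -0.88).

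Amino acid pathways moved the same way. Of 18 genes that break down branched-chain amino acids and propionate, 17 fell (median log2 -2.31), against 1 that fell and 3 that rose by library totals. Aldh6a1, a dehydrogenase of the valine pathway, stood at 41.8, 37.6 and 40.2 CPM and then at 2.67 and 3.27 CPM (log2 -3.74 ± 0.17, adjusted p = 2.4e-06), with no overlap. Pccb, a propionyl-CoA carboxylase subunit, fell 7.72-fold with TMM and did not pass by library totals (log2 -0.64). Of 22 genes of the integrated stress response and amino acid supply, 11 fell and 1 rose (by library totals 1 fell and 14 rose). Pycr1, the last enzyme of proline synthesis, fell 11.8-fold. Of 6 genes of the Reg family, secreted lectins known to rise in an injured pancreas, 3 fell and none rose, while by library totals 2 fell and 2 rose. Reg1 stood at 24624, 18010 and 21090 CPM and then at 1468 and 1726 CPM (log2 -3.73 ± 0.38), and Reg3d fell 15.1-fold. Nupr1, a stress-induced chromatin protein gene chosen after its values were seen, rose from 528, 629 and 557 CPM to 1811 and 2214 CPM (log2 1.82 ± 0.26).

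**Figure D3:**
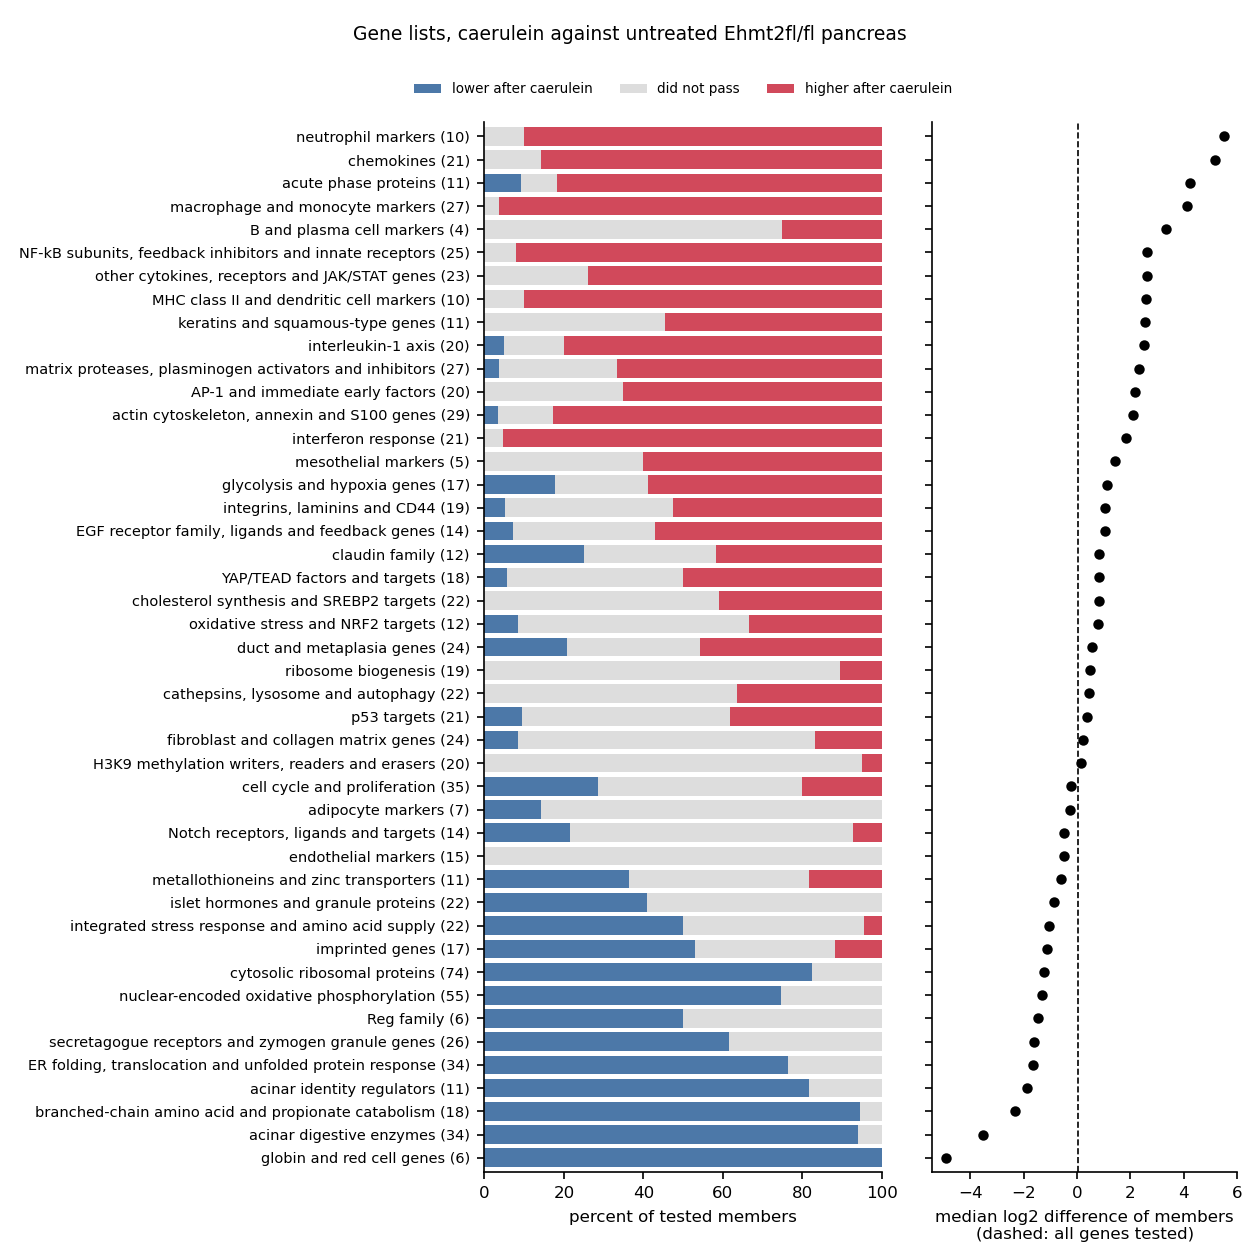
Left, percent of the tested members of each gene list (number in brackets) that passed as higher (red) or lower (blue) after caerulein or did not pass (grey), and right, median log2 difference of the members with TMM scaling, where the dashed line marks all genes (0.057). Neutrophil markers have the highest median (5.50) and globin and red cell genes the lowest (-4.92), and the lists with medians from -2.31 to -0.23 have medians above 0 by library totals. Some members of the lists that rose, such as neutrophil, chemokine, squamous-type and AP-1 members, met the expression filter only through the treated mice.

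Duct and metaplasia genes split into rises and falls. Of 24, 11 rose and 5 fell (median log2 0.57), against 18.0% and 15.9% of all genes. Krt8, a keratin of simple epithelium, stood at 106, 99.4 and 100.5 CPM and then at 848 and 866 CPM (log2 3.07 ± 0.23, adjusted p = 1.4e-05). Krt19, a duct keratin gene chosen after its values were seen, went from 22.8, 13.8 and 12.0 CPM to 140 and 133 CPM, and Krt7 rose 5.87-fold. Mmp7, a matrix protease gene of metaplastic ducts, stood at 2.59, 0.822 and 0.992 CPM and then at 40.3 and 33.4 CPM (log2 4.74 ± 0.34). All 4 of these genes had both treated mice far above the untreated range. Clu, a secreted chaperone gene chosen after its values were seen, rose 3.62-fold. In the other direction, Tff2, a trefoil peptide of gastric and spasmolytic-type mucous cells, fell 31.8-fold, from 2840, 1828 and 1753 CPM to 74.6 and 60.0 CPM.

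Several squamous-type genes were nearly absent from untreated tissue and present after caerulein. Of 22 keratin and squamous-type genes, 11 were listed, of which 6 rose and none fell (median log2 2.56). Sprr1a, Ivl and Krt17 met the expression filter only through the treated mice and could hardly fall. Besides Sprr1a, Krt17, a stress keratin, went from 0.0997, 0.299 and 0.372 CPM to 7.19 and 4.67 CPM (log2 4.41 ± 0.38). Ivl, the envelope protein involucrin, had 1 count in the untreated libraries together and stood at 2.98 and 4.73 CPM after caerulein, a ratio of counts of 154 (27.5 to 6091), and it missed the threshold with the long-short balance as a covariate (adjusted p = 0.356). Sfn, an epithelial 14-3-3 protein gene, rose 6.27-fold. The claudins, which seal tight junctions, split. Of 12 genes, 5 rose and 3 fell, and 3 of 11 rose with all 4 Pdx1-Cre groups in the model. Cldn4 stood at 1.79, 1.64 and 1.98 CPM and then at 221 and 164 CPM (log2 6.73 ± 0.24, adjusted p = 1.4e-06), and Cldn18, chosen after its values were seen, rose 22.0-fold from 1.99 to 10.1 CPM up to 127 and 160 CPM. Cldn10, by contrast, stood at 28.1, 28.2 and 26.3 CPM and then at 1.11 and 0.890 CPM (log2 -4.78 ± 0.17, adjusted p = 1.4e-06). Cldn7 rose 3.0-fold, and Cldn8 fell 9.80-fold with TMM and did not pass by library totals (log2 -0.999).

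Signalling genes of injured epithelium rose in several lists. Of 20 AP-1 and immediate early factors, 13 rose and none fell (median log2 2.17). Members with few untreated counts, such as Ier3 and Fosl1, met the expression filter only through the treated mice. They could hardly fall, so these counts are a description only. Ier3, an early response gene, stood at 0.698, 0.523 and 0.434 CPM and then at 26.7 and 16.4 CPM (log2 5.33 ± 0.30), Fosl1 rose 15.9-fold, Maff 4.82-fold and Fosl2 4.47-fold. Of 14 EGF receptor family, ligand and feedback genes, 8 rose and 1, Egf itself, fell. The feedback inhibitor gene Errfi1 stood at 8.08, 8.22 and 8.43 CPM and then at 19.8 and 23.7 CPM (log2 1.40 ± 0.14), Dusp6, a phosphatase gene of the same feedback, rose 3.82-fold, and Adam17, the sheddase of several ligands, 2.13-fold. Of 18 YAP/TEAD factors and targets, 9 rose and 1 fell, and 5 of 17 rose with the P48-Cre mice added. Among these, Ankrd1 met the expression filter only through the treated mice and could hardly fall. The targets Ankrd1 (24.4-fold), Ccn1 (9.79-fold) and Ccn2 (6.42-fold) rose, and Tead2, a TEAD factor gene, went from 77.8, 58.6 and 50.1 CPM to 10.5 and 9.62 CPM (log2 -2.62 ± 0.22, and -0.25 by library totals). Of 14 Notch genes, 1 rose and 3 fell, against 18.0% and 15.9% of all genes.

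The promoters of Cldn4 and Sprr1a are shown because they carried large rises and hold repeated AP-1 letters. The windows and the build are as above, and capitals mark TGANTCA, a palindrome that reads alike on both strands.
Cldn4: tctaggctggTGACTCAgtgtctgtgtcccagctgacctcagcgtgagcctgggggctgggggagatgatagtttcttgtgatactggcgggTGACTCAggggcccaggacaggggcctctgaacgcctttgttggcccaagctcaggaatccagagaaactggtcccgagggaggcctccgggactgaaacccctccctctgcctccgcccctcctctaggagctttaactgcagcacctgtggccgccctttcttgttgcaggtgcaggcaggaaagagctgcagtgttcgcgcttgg
Sprr1a: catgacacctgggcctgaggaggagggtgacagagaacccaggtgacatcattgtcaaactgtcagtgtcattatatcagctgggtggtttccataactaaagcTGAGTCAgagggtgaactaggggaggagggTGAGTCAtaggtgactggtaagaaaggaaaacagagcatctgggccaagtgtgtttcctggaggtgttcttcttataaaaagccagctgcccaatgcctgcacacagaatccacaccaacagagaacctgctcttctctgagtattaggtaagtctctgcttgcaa
In Cldn4 (chr5:134946885-134947184, minus strand) the motif began at -240 and -158, and in Sprr1a (chr3:92485832-92486131, minus strand) at -146 and -116 from the start site. TGANTCA stood in 9.50% of the promoters of genes that rose and in 5.22% of those that fell, against 5.47% of those of all tested genes and 7.81% of all promoters in the table. It stood in 2 of 5 promoters of the squamous-type list and in 0 of 17 of the AP-1 list.

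NF-kB and innate receptor genes rose nearly as a whole. Of 25 such genes, 23 rose and none fell (median log2 2.65 against 0.057 over all genes). Nfkb2, the subunit of the alternative pathway, stood at 5.38, 3.51 and 4.83 CPM and then at 34.7 and 29.5 CPM (log2 2.82 ± 0.18, adjusted p = 8.1e-06), and its partner Relb rose 8.41-fold. Cd14, a co-receptor for bacterial lipopolysaccharide, went from 1.70, 2.02 and 2.23 CPM to 45.2 and 38.9 CPM (log2 4.39 ± 0.17, adjusted p = 1.6e-06). The adhesion molecule gene Icam1, which holds leukocytes at the vessel wall, rose 9.36-fold. The groups were apart for all 4 genes. The promoter of Nfkb2 (chr19:46305445-46305744, plus strand, RefSeq GRCm38.p6) is shown as that of a pathway gene that also carries letters of the pathway's motif in capitals (GGGA and TTCC with any 2 bases between them, on either strand).
Nfkb2: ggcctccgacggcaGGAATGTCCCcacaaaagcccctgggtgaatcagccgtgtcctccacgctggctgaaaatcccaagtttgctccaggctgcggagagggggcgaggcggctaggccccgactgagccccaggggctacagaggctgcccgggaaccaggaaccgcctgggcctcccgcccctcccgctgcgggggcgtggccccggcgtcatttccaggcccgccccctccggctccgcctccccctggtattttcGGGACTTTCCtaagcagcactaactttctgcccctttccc
The motif began at -236 on the minus strand and at 10 on the plus strand. It stood in 2.20% of promoters of genes that rose and 1.08% of those that fell, against 1.47% of all promoters, and in 3 of 13 promoters of the chemokine genes and 4 of 25 of the NF-kB list.

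Chemokine, cytokine and interleukin-1 genes rose strongly. Of 27 chemokine genes 21 were listed, of which 18 rose and none fell (median log2 5.18), and 11 rose with the long-short balance as a covariate. Members with few untreated counts, such as Ccl2 and Ccl24, met the expression filter only through the treated mice. Such members could rise but hardly fall, so these counts are a description only. Ccl9 stood at 1.79, 1.42 and 1.24 CPM and then at 124 and 110 CPM (log2 6.33 ± 0.20, adjusted p = 1.4e-06), and Ccl6 at 2.39, 2.77 and 0.930 CPM and then at 165 and 139 CPM, both being chemokines of mouse myeloid cells. Cxcl16 rose 9.97-fold and Ccl24, an eosinophil attractant, 16.8-fold. Of 20 genes of the interleukin-1 axis, 16 rose and 1 fell, and Casp4 met the expression filter only through the treated mice. Il1rn, the natural receptor antagonist, stood at 0.997, 1.87 and 2.48 CPM and then at 75.3 and 54.9 CPM (log2 5.13 ± 0.28). The alarmin Il33 rose 13.0-fold, and Gsdmd, whose product forms the pore of pyroptosis, and Casp4, a caspase gene that acts on it, rose 7.87-fold and 21-fold (log2 4.39 for Casp4, and 5.11 without untreated mouse 2). Of 29 other cytokine, receptor and JAK/STAT genes 23 were listed, of which 17 rose. Among them, Il4ra, the interleukin-4 receptor, went from 3.99, 2.17 and 2.42 CPM to 78.6 and 60.6 CPM (log2 4.64 ± 0.24). The receptor genes Csf2rb (27.5-fold), Tnfrsf12a (13.2-fold) and Tnfrsf1b (12.6-fold) rose with it. Of 19 acute phase genes 11 were listed, of which 9 rose and 1 fell. The rises were led, with Saa3, by Lcn2, a carrier of bacterial iron chelators, which went from 1.70, 2.84 and 2.73 CPM to 102 and 77.4 CPM (log2 5.18 ± 0.23). Serpina3n rose 30.1-fold and Hp, haptoglobin, 19-fold.

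Myeloid markers rose together. Of 27 macrophage and monocyte markers, 26 rose (median log2 4.15). Of 15 neutrophil markers 10 were listed, of which 9 rose (median log2 5.50). Neutrophil markers with few untreated counts, such as Clec4d and Cxcr2, met the expression filter only through the treated mice and could hardly fall. Itgam, the CD11b integrin chain of myeloid cells, stood at 1.3, 2.54 and 2.11 CPM and then at 114 and 91.8 CPM (log2 5.67 ± 0.24, adjusted p = 2.2e-06). Ccr2, the receptor of inflammatory monocytes, went from 0.798, 1.27 and 0.682 CPM to 83.8 and 56.7 CPM (log2 6.26 ± 0.28). Adgre1, the F4/80 antigen of mature macrophages, rose 11.1-fold, from 2.98 to 3.59 CPM up to 41.2 and 33.5 CPM. Among neutrophil genes, Csf3r, the receptor for granulocyte colony-stimulating factor, stood at 0.199, 0.224 and 0.248 CPM and then at 18.0 and 9.08 CPM. Clec4d had 1 count in the untreated libraries and stood at 9.79 and 7.36 CPM after caerulein, a ratio of counts of 337 (60.4 to 13319), and Cxcr2 had 2 counts and stood at 4.88 and 4.24 CPM, a ratio of 89.9 (24.8 to 744). The untreated and treated values of all these genes were apart, with mouse 1 the higher treated mouse for each.

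Lymphoid genes set the 2 treated mice apart from each other. Igkc, the kappa light chain of B and plasma cells, stood at 4.29, 8.90 and 4.15 CPM in the untreated mice, at 3.84 CPM in treated mouse 1 and at 124 CPM in treated mouse 2. It did not pass (log2 3.46 ± 1.55, adjusted p = 0.138), and the difference was -0.59 without treated mouse 2 and 4.42, past the threshold, without treated mouse 1 (adjusted p = 5.2e-05). Over all alternatives its edgeR or DESeq2 adjusted p ran from 5.2e-05 to 0.571, and it also passed by library totals, with DESeq2 and with the P48-Cre libraries added. Cd22, an inhibitory receptor of B cells, and Lck, the kinase of the T cell receptor, stood at 0.718 and 0.634 CPM in treated mouse 1 and at 12.1 and 9.52 CPM in treated mouse 2, against 0.186 to 0.299 CPM in the untreated mice. Both passed, with log2 differences of 4.97 and 4.46 that came to 1.81 and 1.46 without treated mouse 2, and both missed the threshold without untreated mouse 1 (adjusted p = 0.210 and 0.209) or 3 (0.286 and 0.291), and with sex (0.277 and 0.271), the long-short balance (0.625 and 0.587) or all 4 Pdx1-Cre groups in the model (0.130 and 0.150), as Cd22 did without untreated mouse 2 (0.108). Of 20 T and NK cell markers 2 were listed, and of 10 B and plasma cell markers 4, whose CPM summed to 11.3 to 24.1 in the untreated mice, 8.59 in treated mouse 1 and 223 in treated mouse 2. The source of this RNA was not tested. Of 10 MHC class II and dendritic cell genes, 9 rose, and 3 did so with the long-short balance as a covariate. Itgax and H2-DMb1 met the expression filter only through the treated mice. Cd74, the invariant chain, chosen after its values were seen, stood at 28.8, 32.1 and 13.8 CPM and then at 81.4 and 227 CPM. Its log2 difference was 2.63, came to 1.71 without treated mouse 2, and missed the threshold with that covariate (adjusted p = 0.144). Itgax, the CD11c integrin chain, was alike in both treated mice at 3.70 and 3.55 CPM, against 0.248 to 0.523 CPM before. H2-DMb1 rose 7.71-fold and H2-DMa 4.57-fold.

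Interferon response genes rose as well. Of 21, 20 rose (median log2 1.85), but 13 rose without untreated mouse 3, 12 without treated mouse 1 and 4 with the long-short balance as a covariate. Irf1, a transcription factor of the interferon response, went from 4.49, 4.78 and 6.01 CPM to 11.7 and 10.8 CPM (log2 1.13 ± 0.16, adjusted p = 4.8e-04), and came to 0.87 on the log2 scale with that covariate.

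**Figure D4:**
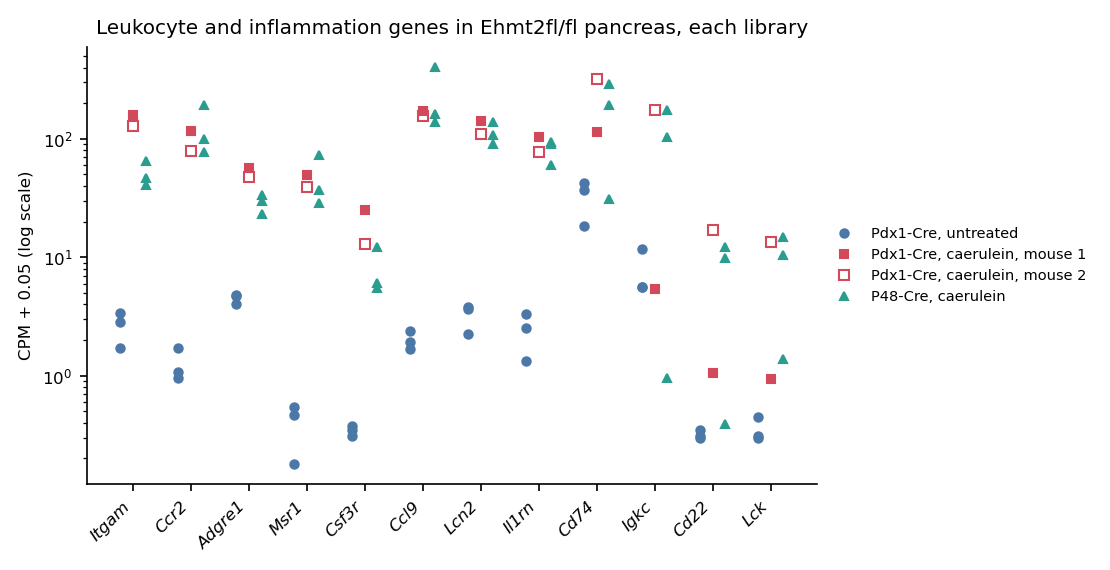
CPM plus 0.05 (log scale, y axis, TMM-scaled over these 8 libraries) of 12 leukocyte and inflammation genes, 1 point per library, in 3 untreated and 2 caerulein-treated Ehmt2fl/fl mice with Pdx1-Cre and in 3 caerulein-treated Ehmt2fl/fl mice with P48-Cre. Myeloid genes are high in all treated mice, whereas Igkc, Cd22 and Lck are high in treated mouse 2 (174, 17.0 and 13.4 CPM) and not in treated mouse 1 (5.34, 0.998 and 0.882 CPM). They are also high in P48-Cre mice 1 and 2 and far lower in P48-Cre mouse 3 (0.912, 0.339 and 1.33 CPM). Cd74 in P48-Cre mouse 3 (31.1 CPM) lies inside the untreated range (18.2 to 42.3 CPM).

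Matrix and cytoskeletal genes rose, while most fibroblast markers did not pass. Of 24 fibroblast and collagen matrix genes, 4 rose, a share near the 18.0% of all genes that did, and 2 fell, against 15.9% of all genes (median log2 0.24). Fn1, fibronectin, stood at 46.9, 60.8 and 44.8 CPM and then at 645 and 467 CPM (log2 3.45 ± 0.26, adjusted p = 1.5e-05), Pdpn, podoplanin, rose 13.6-fold, Vim, vimentin, 3.18-fold, and Pdgfra, a receptor of fibroblasts, 2.47-fold (log2 1.3, but 0.93 with the P48-Cre mice added). Lum, a collagen-binding proteoglycan gene chosen after its values were seen, went from 9.97, 11.5 and 12.6 CPM to 4.19 and 3.13 CPM with TMM (log2 -1.64), and its direction turned by library totals (0.66). Of 27 genes of matrix proteases, plasminogen activators and their inhibitors, 18 rose and 1 fell. Timp1, Tnc and Itga2, named below, met the expression filter only through the treated mice and could hardly fall. Timp1, the metalloproteinase inhibitor, stood at 0.0997, 0.449 and 0.620 CPM and then at 44.0 and 29.9 CPM (log2 6.43 ± 0.34), Tnc, tenascin-C of wound matrix, rose 67.5-fold, Thbs1 15.9-fold and Mmp19 6.07-fold. Of 19 integrin, laminin and CD44 genes, 10 rose and 1 fell. Cd44, the hyaluronan receptor, stood at 2.49, 3.59 and 3.47 CPM and then at 87.0 and 63.0 CPM (log2 4.54 ± 0.21), and Itga2, an integrin chain of collagen receptors, rose 26.9-fold. Of 29 actin cytoskeleton, annexin and S100 genes, 24 rose and 1 fell (median log2 2.09). Anxa2 stood at 16.4, 16.8 and 17.8 CPM and then at 194 and 150 CPM, its partner S100a10 rose 6.26-fold, S100a11 11-fold and Anxa3 7.66-fold.

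Metabolic lists moved in both directions. Of 22 cholesterol synthesis genes, 9 rose and none fell, among them Hmgcs1, an early enzyme of the pathway (3.06-fold), and 5 rose with the long-short balance as a covariate. Of 17 glycolysis and hypoxia genes, 10 rose and 3 fell. Slc2a1, the glucose transporter of proliferating and stressed cells, stood at 3.59, 3.36 and 3.47 CPM and then at 20.2 and 15.6 CPM (log2 2.36 ± 0.17), and Hk1 rose 3.29-fold. Of 12 oxidative stress genes, 4 rose and 1 fell, led by the haem-degrading enzyme Hmox1 (13.0-fold) and by Srxn1 (5.50-fold). Of 55 nuclear-encoded oxidative phosphorylation genes, 41 fell with TMM (median log2 -1.30), but 18 fell with the long-short balance as a covariate, 14 with the P48-Cre mice added, and none fell and 32 rose by library totals. Ndufc1, a complex I subunit, went from 14.8, 12.9 and 14.3 CPM to 3.24 and 2.96 CPM (log2 -2.17, and 0.16 by library totals), and Atp5g1 fell 5.23-fold with TMM and differed by -0.04 by library totals. Of 74 cytosolic ribosomal protein genes, 61 fell with TMM (median log2 -1.25), whereas 25 fell without untreated mouse 1, 3 with the P48-Cre mice added, none fell with the balance covariate and 58 rose by library totals. Rpl38 stood at 146, 88.4 and 78.4 CPM and then at 33.2 and 38.2 CPM, with a log2 difference of -1.55 that turned to 0.86 by library totals and came to -0.86 with the balance covariate, and Rpl31 (-1.11, and 1.26 by library totals) missed the size threshold without untreated mouse 1 (-0.97) or treated mouse 1 (-0.98).

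Proliferation genes passed in both directions. Of 35, 7 rose, a share near the 18.0% of all genes that did, and 10 fell, against 15.9% of all genes (median log2 -0.23). The number that fell was 6 with the balance covariate and 4 with all 4 Pdx1-Cre groups in the model, and by library totals none fell and 27 rose. Mcm5, a replication helicase subunit, stood at 4.89, 5.23 and 5.83 CPM and then at 14.9 and 12.6 CPM (log2 1.36 ± 0.15), and Ccnd2, a cyclin gene, went from 72.8, 95.4 and 59.7 CPM to 25.2 and 27.9 CPM (log2 -1.52, and 0.81 by library totals). Of 21 p53 targets, 8 rose and 2 fell, and 4 rose with the balance covariate. Trp53inp1, a stress gene of autophagy and cell death, rose 4.04-fold, from 15.7, 17.5 and 20.2 CPM to 58.9 and 85.4 CPM, and Plk2 fell 5.87-fold with TMM, with -0.23 on the log2 scale by library totals.

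Markers of other cell types of the tissue moved in both directions, and the number that passed depended on the scaling for islet and endothelial markers. Of 22 islet genes, 9 fell (median log2 -0.87), 17 did so without treated mouse 1, and by library totals none fell and 13 rose. Pdx1, the factor of islet and progenitor cells whose promoter drives Cre here, went from 4.69, 3.74 and 4.96 CPM to 0.838 and 0.725 CPM (log2 -2.51, and -0.19 by library totals), and Slc2a2, the glucose transporter of beta cells, fell 5.26-fold with TMM (-0.09 by library totals). Of 15 endothelial markers none passed with TMM, although 4 fell with the P48-Cre mice added, 2 without treated mouse 2, and by library totals all 15 rose. Sox18, for example, stood at 6.78, 7.10 and 6.57 CPM and then at 3.58 and 3.32 CPM (log2 -0.98, -1.08 with the P48-Cre mice added, and 1.34 by library totals), and Vwf differed by -0.84 with TMM, -1.19 with those mice added and 1.46 by library totals. Of 5 mesothelial markers, Upk1b (log2 3.05), Wt1 (2.61) and Lrrn4 (1.44) rose and none fell, and 1 rose with the P48-Cre mice added. Of 8 tuft cell markers 3 were listed, of which Dclk1 (1.91) and Ptgs1 (1.18) rose, and 1 did so with those mice added. Of 8 mast cell markers 2 were listed, of which Hdc, which makes histamine, rose (4.06) and Kit, a receptor that other cells also carry, fell (-1.19, and 1.19 by library totals) but missed the threshold with the balance covariate or without untreated mouse 1. All 6 globin and red cell genes fell under both scalings (median log2 -4.92). Hba-a1, an alpha globin gene with a near-identical copy, stood at 158, 37.6 and 115 CPM and then at 2.23 and 3.37 CPM (log2 -5.20 ± 0.75), and Slc4a1, the anion exchanger of red cells, had 152 counts in the 3 untreated libraries and 1 count in the 2 treated libraries. How much blood each sample held was not tested.

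Genes of the methylation pathway that Ehmt2 belongs to rarely passed. Of 20 writers, readers and erasers of H3K9 methylation, 1 rose and none fell, against 18.0% and 15.9% of all genes. The median log2 difference was 0.17 against 0.057 over all genes, although by library totals all 20 rose. The one that passed was Setdb2, a methyltransferase gene, at 0.798, 0.673 and 0.434 CPM and then at 1.70 and 1.5 CPM (log2 1.38 ± 0.32, adjusted p = 0.0062). With 8, 9 and 7 untreated counts, Setdb2 met the expression filter only through the treated mice and could hardly fall. Of 17 imprinted genes, whose silent allele is kept by inherited methylation, 2 rose and 9 fell with TMM (median log2 -1.11), and by library totals none fell and 11 rose. Snrpn went from 17.2, 14.1 and 13.3 CPM to 4.87 and 4.27 CPM (log2 -1.69, and 0.66 by library totals), and Cdkn1c, a cell cycle inhibitor, from 5.38, 5.31 and 4.4 CPM to 1.14 and 1.22 CPM (log2 -2.09, and 0.25 by library totals).

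Whether caerulein acted differently where Ehmt2 was intact was tested as the interaction of genotype and treatment over the 11 Pdx1-Cre libraries, with CPM scaled over these. Of 13468 genes, 171 passed (1.27%), 119 with a lower and 52 with a higher response in Ehmt2fl/fl, and 1877 had an unadjusted p under 0.05. The sexes differed, since the 4 treated Ehmt2+/+ mice were female and both treated Ehmt2fl/fl mice male, and with sex as a covariate 19 genes passed. Leaving out 1 library gave from 12 genes (without treated Ehmt2fl/fl mouse 1) to 602 (without treated Ehmt2+/+ mouse 4), with 14 and 588 without untreated Ehmt2+/+ mouse 2 and 1 and 27 without treated Ehmt2fl/fl mouse 2. Of 11 acinar regulators, 5 passed, all with a lower response in Ehmt2fl/fl. Over all 11 regulators the median log2 response was -0.35 in Ehmt2+/+ and -1.87 in Ehmt2fl/fl, the latter from the fit of the 5 Ehmt2fl/fl libraries.

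Rbpjl had the lowest adjusted p together with Nr5a2 and Ces1d. Rbpjl stood at 115 and 141 CPM in untreated and at 39.8, 36.4, 47.8 and 43.9 CPM in treated Ehmt2+/+ mice, against 107, 101 and 118 CPM and then 5.90 and 4.47 CPM in Ehmt2fl/fl (difference of responses -2.78 ± 0.29 on the log2 scale, adjusted p = 0.0055). Nr5a2 stood at 32.0 and 31.9 CPM and then at 26.4, 29.2, 30.7 and 28.5 CPM in Ehmt2+/+, and at 38.3, 39.6 and 35.4 CPM and then at 9.68 and 8.72 CPM in Ehmt2fl/fl (-1.88 ± 0.20, adjusted p = 0.0055). The treated Ehmt2fl/fl mice lay below each of the other 9 libraries for both genes. The untreated mice of the genotypes overlapped for Rbpjl. For Nr5a2 the untreated Ehmt2fl/fl mice all lay above the untreated Ehmt2+/+ mice, a difference that was not tested here and that enters the difference of responses. Sostdc1 differed by -4.21 ± 0.49, the clone-named gene 1810028F09Rik by -3.54 ± 0.43, Cldn10 by -2.93 ± 0.36 and Ces1d, a carboxylesterase gene, by -2.10 ± 0.23. These 6 genes passed in each of 17 other settings, sex as a covariate and each library left out included, with adjusted p up to 0.0882. Ces1d already stood apart without caerulein, at 16.5, 18.4 and 19.3 CPM in Ehmt2fl/fl and 9.86 and 9.12 CPM in Ehmt2+/+ mice, a difference that was not tested here. So did Cldn10, at 26.4 to 28.2 CPM against 23.4 and 21.4 CPM, and 1810028F09Rik, at 558 to 923 CPM against 946 and 981 CPM.

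Other genes described above passed in fewer settings. Bhlha15 stood at 243 and 157 CPM and then at 46.6, 35.6, 59.7 and 33.9 CPM in Ehmt2+/+, and at 194, 213 and 223 CPM and then at 4.29 and 5.56 CPM in Ehmt2fl/fl (-3.23 ± 0.41, adjusted p = 0.0081), and it passed in 16 of 17. Ptf1a stood at 18.4 and 12.8 CPM and then at 22.5, 22.2, 26.7 and 16.9 CPM in Ehmt2+/+, and at 23.4, 30.0 and 34.4 CPM and then at 12.7 and 11.5 CPM in Ehmt2fl/fl (-1.79 ± 0.33, adjusted p = 0.0407), with a response of 0.51 that did not pass in Ehmt2+/+, and it passed in 12 of 17. Its untreated levels already stood apart between the genotypes, a difference that was not tested here and that enters the difference of responses. Cckar went from 485 and 340 CPM to 81.0 to 203 CPM in Ehmt2+/+ and to 20.8 and 22.0 CPM in Ehmt2fl/fl (-3.14 ± 0.50), and Cdkn1c, at 3.07 to 4.64 CPM in all 6 Ehmt2+/+ mice, differed by -2.10 ± 0.33. On the side of a higher response, Errfi1 stood at 5.69 to 8.23 CPM in all 6 Ehmt2+/+ mice and at 20.8 and 24.7 CPM in the treated Ehmt2fl/fl mice (1.53 ± 0.25, adjusted p = 0.0296). Cckar, Cdkn1c and Errfi1 each passed in 13 of 17 settings, and with sex as a covariate their adjusted p were 0.156, 0.150 and 0.156. Slc2a1 passed in 10, Cldn8 and Tead2 in 8 and Il4ra in 6 of 17. The difference in response of Ehmt2 did not pass (-0.32 ± 0.23, adjusted p = 0.548), at 29.1 to 40.9 CPM in the Ehmt2+/+ mice.

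**Figure D5:**
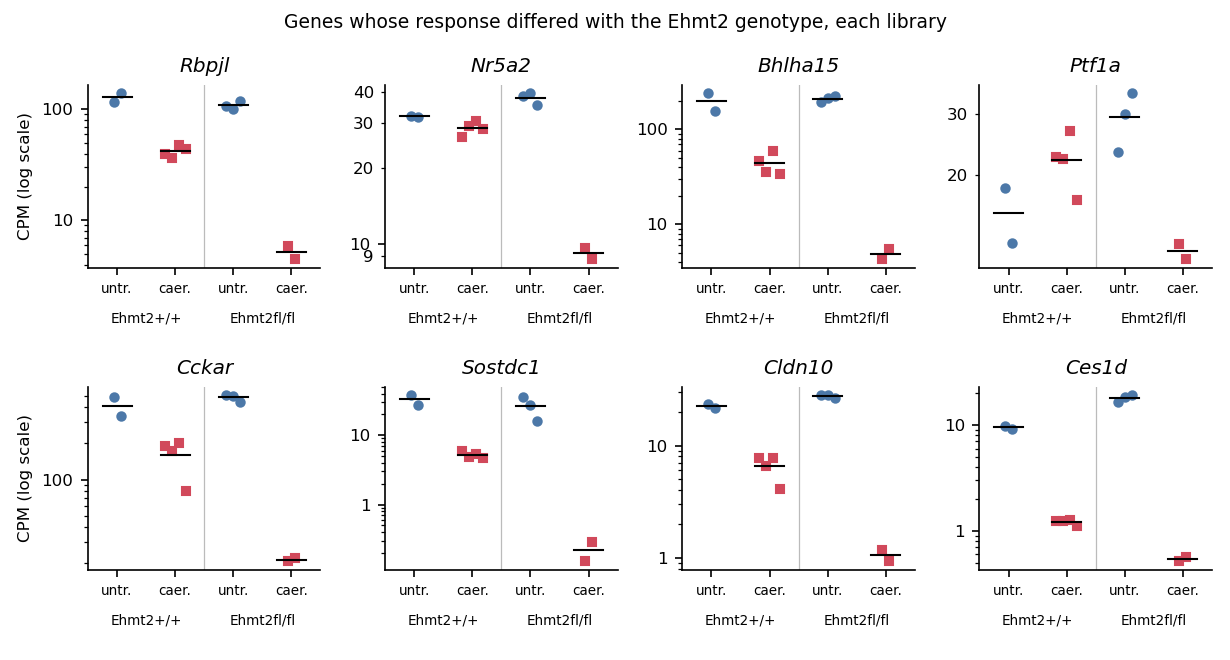
CPM (log scale, y axis, TMM-scaled over 11 libraries) of 8 genes whose caerulein response differed with the Ehmt2 genotype, 1 point per library in untreated (circles) and caerulein-treated (squares) mice, with the group mean as a line. The 2 treated Ehmt2fl/fl mice are the lowest of the 11 for each gene, as for Rbpjl at 5.90 and 4.47 CPM against 36.4 to 47.8 CPM in treated Ehmt2+/+ mice. For Ptf1a, treated Ehmt2fl/fl mouse 1 (12.7 CPM) is level with untreated Ehmt2+/+ mouse 2 (12.8 CPM).

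The 3 caerulein-treated Ehmt2fl/fl mice with P48-Cre give levels under another Cre driver, with no untreated P48-Cre group beside them, and their CPM are scaled together with those of the 5 Pdx1-Cre libraries. Rbpjl stood at 6.35, 11.6 and 11.8 CPM in the P48-Cre mice, beside 7.80 and 6.01 CPM in treated and 133 to 156 CPM in untreated Pdx1-Cre mice. Bhlha15 stood at 4.66, 7.23 and 5.68 CPM, beside 5.67 and 7.48 CPM in the treated and 251 to 295 CPM in the untreated. Cldn4 stood at 411, 431 and 264 CPM, beside 307 and 231 CPM and 2.16 to 2.63 CPM. For these genes the P48-Cre mice lay near the treated Pdx1-Cre mice and outside the untreated range. Amylase varied among the P48-Cre mice, as Amy2a2 stood at 501, 2187 and 5895 CPM with P48-Cre, beside 395 and 474 CPM and 12963 to 15657 CPM with Pdx1-Cre. Enzymes took 32.2%, 37.5% and 37.8% of counts in the P48-Cre libraries. Fn1, at 292, 180 and 81.9 CPM, and Itgam, at 65.1, 47 and 41 CPM, were below the treated Pdx1-Cre mice (896 and 656 CPM, and 158 and 129 CPM). Rpl38, at 91.2, 109 and 124 CPM, overlapped the untreated range of 104 to 188 CPM and not the treated Pdx1-Cre levels of 46.1 and 53.7 CPM. Igkc again set mice of a group apart, at 176, 104 and 0.912 CPM.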

How the data were processed

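The authors prepared unstranded poly(A) libraries from whole pancreas, mapped them to GRCm38.p6 and deposited raw read counts per gene, with gene length as another column, which is not stated to be more than a transcript length. The tools named by the submitters include edgeR 3.28.1. RPKM, fold changes and p-values that the authors deposited beside them were not used, and 0 value columns belonged to no sample of the series. Each table lists genes above a filter of its own.

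Groups came from the labels, which name separate animals. The counts were fitted with edgeR 4.0.16 and limma 3.58.1 in R 4.3.3 by quasi-likelihood F-tests with TMM factors (0.386 to 0.648 in untreated, 2.64 and 2.68 in treated libraries), over genes kept by filterByExpr (minimum count 10, minimum total 15), which all 14586 did. P-values were adjusted by Benjamini-Hochberg over all genes tested. A call required an FDR under 0.1 and a difference of 1 or more on the log2 scale. The standard error is the log2 difference divided by the root of F. CPM are counts per 1000000 of the TMM-scaled library size, and fold changes come from the fitted log2 values. Where the untreated libraries held 1 to 3 counts, the ratio of the counts is given with an exact interval of 95%, which covers counting error only. The interaction was a contrast over the 4 Pdx1-Cre groups in 1 model. The long-short balance is the median centred log2 CPM of genes in the top quartile of length minus that of genes in the bottom quartile. Sex was read from Y-linked genes, with more than 10 counts taken as male. The fit of the caerulein response, and not that of the interaction, was run on simulated data.

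The genes and lists were chosen with earlier results of these data known, and the 52 lists include genes named by the study. Named are Ehmt2, the 10 largest rises and falls with a mean of at least 5 CPM, no overlap and a symbol that is no clone name, up to 4 members of a list by adjusted p, and the 6 interaction genes lowest in adjusted p. Of 52 lists, those of skeletal muscle and of Schwann cells and nerve had 0 tested members, that of intestine and stomach had 1, which did not pass, and 4 sex-linked genes did not pass. Alternatives were RLE factors, library totals, TMM without enzyme and mitochondrial genes, no filter, DESeq2 1.42.0, an FDR under 0.05, all 4 groups in 1 model, sex, the long-short balance, the P48-Cre libraries added to the treated group, and each library left out. Leaving out ribosomal RNA gene models, and sex in the interaction, were added after the data were seen. Promoters are RefSeq windows of GRCm38.p6, found for 10448 of 14569 tested symbols. Figures were drawn with matplotlib 3.10.9 and tables handled with pandas 2.3.3, scipy 1.17.1 and numpy 2.4.6 (Python 3.11.15). Some members of the gene lists are counted but not reported by name here. Counts of a list are over its listed members, and a gene with few untreated counts met the filter only through the treated mice.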

Additional observations from a re-analysis of the deposited data

Results flagged for a closer look

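The genes below are singled out because their caerulein response differed between Ehmt2fl/fl and Ehmt2+/+ mice by the interaction test of edgeR over 11 libraries (adjusted p under 0.1). They are described or named by the rule, and groups of 2 or 3 mice were not examined for outlying samples. The response of the acinar regulator genes was lower in Ehmt2fl/fl by -3.23 (Bhlha15), -2.78 (Rbpjl), -1.88 (Nr5a2) and -1.79 (Ptf1a) on the log2 scale, and that of the cholecystokinin receptor gene Cckar by -3.14. It was lower by -4.21 for Sostdc1, -3.54 for 1810028F09Rik, -2.93 for Cldn10, -1.70 for Cldn8, -2.10 for Ces1d, -2.10 for Cdkn1c and -1.62 for Tead2. It was higher by 2.99 for Il4ra, 1.59 for Slc2a1 and 1.53 for Errfi1. With sex as a covariate, the differences of Cckar, Cldn8, Cdkn1c, Errfi1, Il4ra, Ptf1a, Slc2a1 and Tead2 missed the threshold. Sex and genotype cannot be told apart among the treated mice.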

How the results depend on the processing

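The response kept its count of 4954 genes within 1.5 times under RLE factors (4973), TMM without enzymes (4962), no filter (4954), DESeq2 (4890), an FDR under 0.05 (4837), 4 groups in 1 model (4301), sex (5049), the long-short balance (4127), the P48-Cre libraries added (4299) and without ribosomal RNA gene models (4948, added after the data were seen). Leaving out 1 library gave 4709 to 5043 genes, 2483 to 2642 higher and 2226 to 2401 lower, with a lone treated mouse assumed to vary like the others. By library totals 13198 passed, 13015 higher and 183 lower, and the sign turned for Ehmt2 (2.02), Prss3 (0.68), Nr5a2 (0.22), Ptf1a (0.93), Lum (0.66), Ndufc1 (0.16), Rpl38 (0.86), Rpl31 (1.26), Ccnd2 (0.81), Sox18 (1.34), Vwf (1.46), Snrpn (0.66) and Cdkn1c (0.25). The share of enzymes over genes with counts in all 22 libraries was 76.5% untreated and 38.3% treated. The interaction (171 genes, 52 higher and 119 lower) gave 2054 (2006 and 48) by library totals, 569 (204 and 365) with DESeq2, 81 (18 and 63) at an FDR under 0.05 and 19 (1 and 18) with sex, the last added after the data were seen. Leaving out 1 library gave 12 to 602 genes, 1 to 243 higher and 11 to 365 lower. The cause of these shifts was not tested. With 2 treated mice, low genes have wide errors. No paired analysis was possible because the treated and untreated mice were separate animals by their labels.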
